A study of Mus musculus with 6 samples.

Results

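The 75 genes described here encode proteins of the mitochondrial ribosome. They are the rows of a table of 11578 genes whose symbol starts with Mrpl or Mrps and a number, 47 named for the large subunit and 28 for the small subunit. Every one of the 75 passed the filter on low values. Of 78 protein-coding genes that carry such a symbol in GENCODE release M21, Mrps18c was not in the table used here, and Mrpl57 and Mrpl58 stood in it under their older symbols Mrp63 and Ict1, so that the naming rule did not take them.

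Mitochondrial ribosomes translate the few messenger RNAs of the mitochondrial genome, all of which code for subunits of the respiratory chain and ATP synthase. Their ribosomal RNAs come from the mitochondrial genome, whereas every protein of both subunits is made from a nuclear gene, translated in the cytoplasm and imported. Part of these proteins descend from bacterial ribosomal proteins and the rest arose with mitochondria. Tubule cells of the kidney, which spend much ATP on transport, are rich in mitochondria.

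The RNA came from whole mouse kidneys, labelled as embryonic day 17, with a slightly later stage in the extraction protocol. The mutant group held 3 kidneys labelled SRM deletion mutant. SRM is the short motif by which Sall1, a zinc finger transcription factor, recruits the NuRD complex, a chromatin remodeller. The wild type group held 3 kidneys labelled Sall1 wild type, and strain, zygosity and litter are not given in the labels. Nothing says whether the kidneys of a group came from separate embryos, and p-values therefore speak only of the spread among these samples, which may be technical. Libraries are named by group and label number, mutants 328, 336 and 342 and wild types 330, 331 and 337.

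The deposited values are a signal per gene, scaled by the authors so that totals lay between 555147910 and 559251769. Depth per library is unknown, and no counting error can be given. In mutant 336 and wild types 331 and 337 the values lie on a coarse grid, with a periodicity of 0.499 to 0.865 against 0.0658 to 0.119 in the other 3 libraries, and these are called the coarse class. Within either class 1 genotype has a single library. All 16 kidney cell markers on a list, among them Six2, Umod and Aqp2, were in the table, as were 5 of 10 genes of blood, macrophage, adrenal and muscle cells. The summed signal of the kidney markers was 1646293 to 1994025 in mutants and 1702415 to 1958435 in wild types. That of the 5 other genes was 915276 to 1950809 and 815776 to 1650777. These sums are carried by a few abundant genes such as Hba-a1, and single markers moved within them. Cited1, a marker of nephron progenitors, fell, with a log2 difference of -1.70 between mutant and wild type (SE 0.27, adjusted p = 0.024 in limma). Markers that did not pass but had separated groups include Slc12a1 of the loop of Henle (-0.86, SE 0.18), Foxd1 of the stroma (0.75, SE 0.22), and the macrophage and leukocyte genes Csf1r (0.95, SE 0.21) and Ptprc (0.48, SE 0.24). Other markers on the list did not move with them. Six2, also of nephron progenitors, had 0.11 (SE 0.27), Umod of the loop of Henle 0.09 (SE 0.24) and Pdgfrb of the stroma 0.01 (SE 0.15), all with overlapping groups. The part of any of these markers in the results was not tested.

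No gene of either subunit passed the test between mutant and wild type kidneys. In limma, with Benjamini-Hochberg adjustment over all genes, 0 of 47 large subunit and 0 of 28 small subunit genes had an adjusted p under 0.05, where 0.285% of all genes did (0.199% higher and 0.0864% lower in mutants). The lowest adjusted p among the members was 0.233. Without adjustment, 5 large and 1 small subunit genes had a limma p under 0.05, together 8.0% of the members against a background of 19.0% of all genes. Of these, 2 members were higher, where 10.5% of all genes were, and 4 were lower, where 8.51% were. The authors' deposited table gives a p under 0.05 to 1 member, Mrps16 (ratio of means 0.81, p = 0.024), against 8.71% of all genes. In whole kidneys fewer cells of a type and less RNA per cell cannot be told apart.

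The median log2 difference, mutant minus wild type on the log2(signal + 1) scale, was -0.10 over the large subunit and 0.04 over the small subunit, against 0.02 over all genes. Without mutant 336 the large subunit median was 0.01. The small subunit median was -0.03 without mutant 342 or without wild type 337, so that neither sign was stable. Differences ran from -0.70 to 0.64 in the large and from -0.43 to 0.67 in the small subunit, with a median standard error of 0.24 and 0.22. For 63 of 75 members the 95% confidence interval of limma stayed within 1 log2 unit either side of 0, and for 6 of 75 it left out 0.

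**Figure D1:**
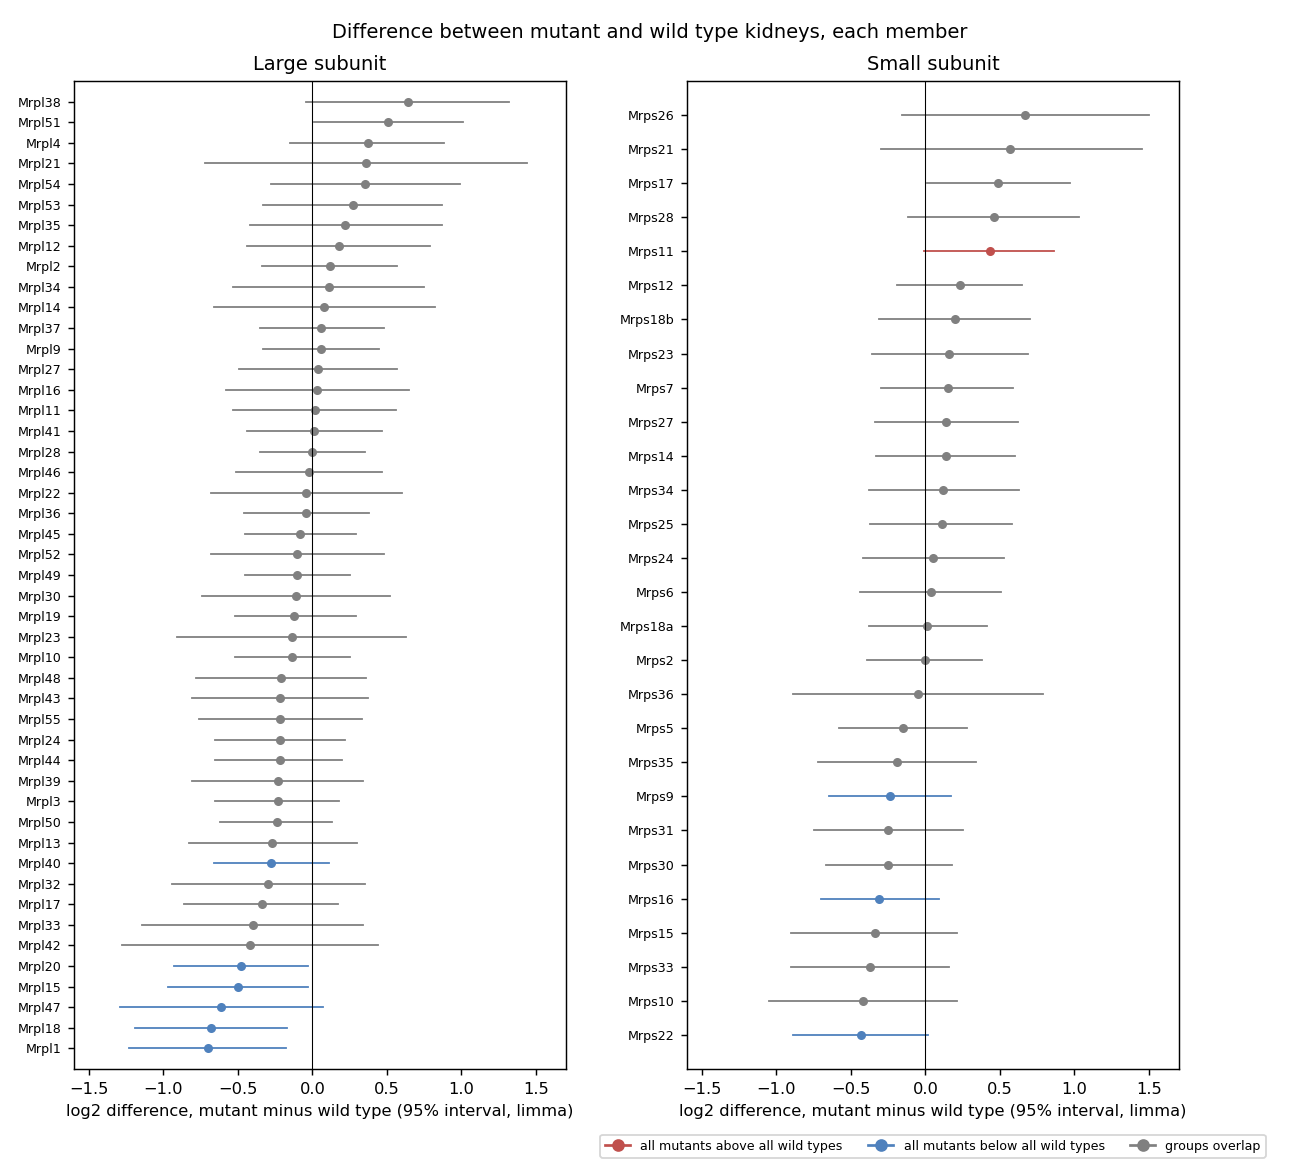
Log2 difference between mutant and wild type (x axis, n = 3 each) for each member (y axis, ordered by difference), large subunit left and small subunit right. Points are limma estimates and lines are 95% confidence intervals; colours mark the 10 members whose groups do not overlap, and 6 intervals leave out 0.

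Levels of the members varied by library within each genotype. In mutant 336 the large subunit genes lay a median of 0.33 log2 units below their own mean over the 6 libraries, and the small subunit genes 0.21 below. Median deviations of the large subunit in mutants 328 and 342 were 0.02 and 0.14, and in wild types 330, 331 and 337 they were 0.10, 0.05 and 0.12. Mutant 336 was therefore the low library, and the other 2 mutants lay just below and just above the range of the wild types. It held the lowest value of the 6 libraries for 22 of 47 large and 9 of 28 small subunit genes, together 41.3% of members, where it did so for 14.4% of all genes.

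Small subunit genes had median deviations of 0.06 and 0.18 in mutants 328 and 342, 0.12 in wild type 330, but -0.07 and -0.08 in wild types 331 and 337. The coarse class was thus the lower one for the small subunit, in both genotypes. All members together took 0.37%, 0.314% and 0.402% of the signal in mutants 328, 336 and 342, against 0.389%, 0.359% and 0.362% in wild types 330, 331 and 337. The mutant shares span the wild type ones. The mean log2 deviation of the large subunit minus that of the small subunit, a balance that no scaling of a library can move, was -0.01, -0.17 and 0.00 in the mutants, against -0.03, 0.09 and 0.13 in the wild types. Wild type 330 lay below 2 of the 3 mutants, so the groups overlap.

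**Figure D2:**
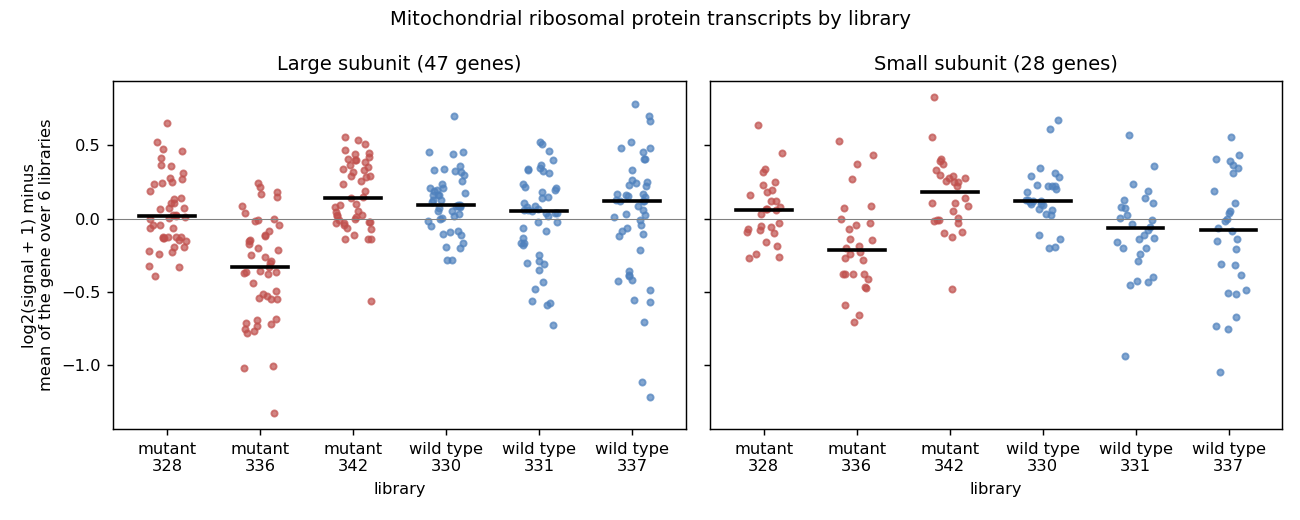
Deviation of each member from its own mean over the 6 libraries, in log2 units (y axis), by library (x axis; red mutants, blue wild types). Points are genes and black bars are medians: mutant 336 has the lowest median in both subunits, at -0.33 and -0.21.

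The 3 mutant values lay wholly on one side of the 3 wild type values for 10 of 75 members, or 13.3%, against 19.5% of all genes. In 9 of these the mutants were lower, where 8.42% of all genes were, and in 1 they were higher, where 11.1% of all genes were.

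Mrpl1, the counterpart of the bacterial protein of the mobile stalk beside the tRNA exit site, had the lowest difference of the large subunit. It lies on chromosome 5, 96209493 to 96266727 (GRCm38, also called mm10). The signal was 18312, 17872 and 14512 in mutants 328, 336 and 342, against 20158, 27622 and 36823 in wild types 330, 331 and 337. All mutants lay below all wild types, wild type 330 only just above them and wild type 337 far above. The means were 16899 ± 2079 (SD, n = 3) and 28201 ± 8348 (SD, n = 3), with a fitted log2 difference of -0.70 (SE 0.24, adjusted p = 0.233 in limma).

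Mrpl18, a protein of the central protuberance (chromosome 17, 12911349 to 12916345), had 21350, 14942 and 24892 in the mutants, against 25807, 35882 and 35212 in the wild types. Again the groups did not overlap, with wild type 330 close to mutant 342. The log2 difference was -0.68 (SE 0.23, adjusted p in limma = 0.233). Exons of Mrpl18 overlap those of Tcp1 on the opposite strand, and whether the authors counted by strand is not given in the sources used here.

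Mrpl15 and Mrpl20, RNA-binding proteins of the large subunit that bacteria also have, both had all mutants below all wild types. Mrpl15 had 16082, 16446 and 18313 in the mutants, against 18692, 28963 and 25338 in the wild types, which is -0.50 on the log2 scale (SE 0.21, adjusted p = 0.253 in limma). Mrpl20 had 18371, 19432 and 20993 in the mutants, against 21410, 29363 and 32256 in the wild types, a difference of -0.48 (SE 0.21, adjusted p in limma = 0.256). In both genes wild type 330 stood close to the highest mutant, and wild types 331 and 337 stood apart from the other 4 libraries.

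Mrpl47, the counterpart of a bacterial protein at the polypeptide exit, had 9063, 4521 and 9665 in the mutants, against 10141, 11474 and 12005 in the wild types. Here mutant 336 stood far below every other library, and the log2 difference of -0.61 (SE 0.31) was -0.26 without it. Its exons overlap Actl6a and Ndufb5 on the opposite strand. Mrpl40, a mitochondria-specific protein of the central protuberance, had 32199, 32018 and 36224 in the mutants, against 36441, 45546 and 39933 in the wild types, a difference of -0.28 (SE 0.17). Mutant 342 and wild type 330 almost met, so that the groups were barely separated.

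At the other end of the large subunit stood Mrpl38, which belongs to the central protuberance, and Mrpl51, a mitochondria-specific protein. Mrpl38 had a signal of 45034, 31250 and 42469 in the mutants, against 38972, 27901 and 14465 in the wild types. Wild type 330 lay above mutant 336, so the groups overlap, and the log2 difference of 0.64 (SE 0.31) was 0.25 without wild type 337. Mrpl51 had 33183, 29242 and 36578 in the mutants, against 32410, 18518 and 20596 in the wild types, a difference of 0.51 (SE 0.23, adjusted p in limma = 0.262). Wild type 330 again read like a mutant, and only wild types 331 and 337 were low.

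In the small subunit Mrps22, a mitochondria-specific protein whose mutation causes mitochondrial disease in humans, had the lowest difference. The signal was 14172, 13117 and 16894 in the mutants, against 17415, 19353 and 23005 in the wild types. Every mutant lay below every wild type, and the log2 difference was -0.43 (SE 0.21, adjusted p in limma = 0.272). Mrps16, a conserved protein also mutated in human mitochondrial disease, had 20200, 20409 and 23911 in the mutants, against 25908, 28097 and 25684 in the wild types, a difference of -0.31 (SE 0.18). Its wild types lay close together, and wild type 330 was not the lowest of them. Mrps9 had 21596, 24850 and 25755 in the mutants, against 27215, 25857 and 32345 in the wild types, a difference of -0.24 (SE 0.19), with wild type 331 just above mutant 342.

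Mrps11, a conserved protein of the platform that faces the messenger RNA exit, was the only member with all mutants above all wild types (chromosome 7, 78783119 to 78792989). It had 30833, 42644 and 30749 in the mutants, against 25816, 28450 and 22697 in the wild types. Mutant 336 was its highest library, the library in which 31 of 75 members had their lowest value. The means were 34742 ± 6843 and 25654 ± 2880 (SD, n = 3 each), with a fitted log2 difference of 0.43 (SE 0.20, adjusted p = 0.266 in limma), and 0.27 without mutant 336.

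Mrps26, a mitochondria-specific protein, and Mrps21, which bacteria also have, had the highest differences of the small subunit. Mrps26 had 27882, 15711 and 26408 in the mutants, against 28519, 9347 and 10774 in the wild types. Its highest library was a wild type and the groups overlap, with a difference of 0.67 (SE 0.38) that was -0.07 in the 3 libraries outside the coarse class. Mrps21 had 26018, 14359 and 34008 in the mutants, against 29207, 14255 and 9248 in the wild types, a difference of 0.57 (SE 0.40) that was 0.19 without wild type 337, 0.30 without mutant 342, 0.92 without mutant 336 and 1.02 without wild type 330. In both genes the 3 libraries of the coarse class were the 3 lowest. Mrps10, with 8603, 5644 and 5271 in the mutants, against 7882, 8008 and 9727 in the wild types, had the second lowest difference, -0.42 (SE 0.29), and its groups overlap at mutant 328.

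**Figure D3:**
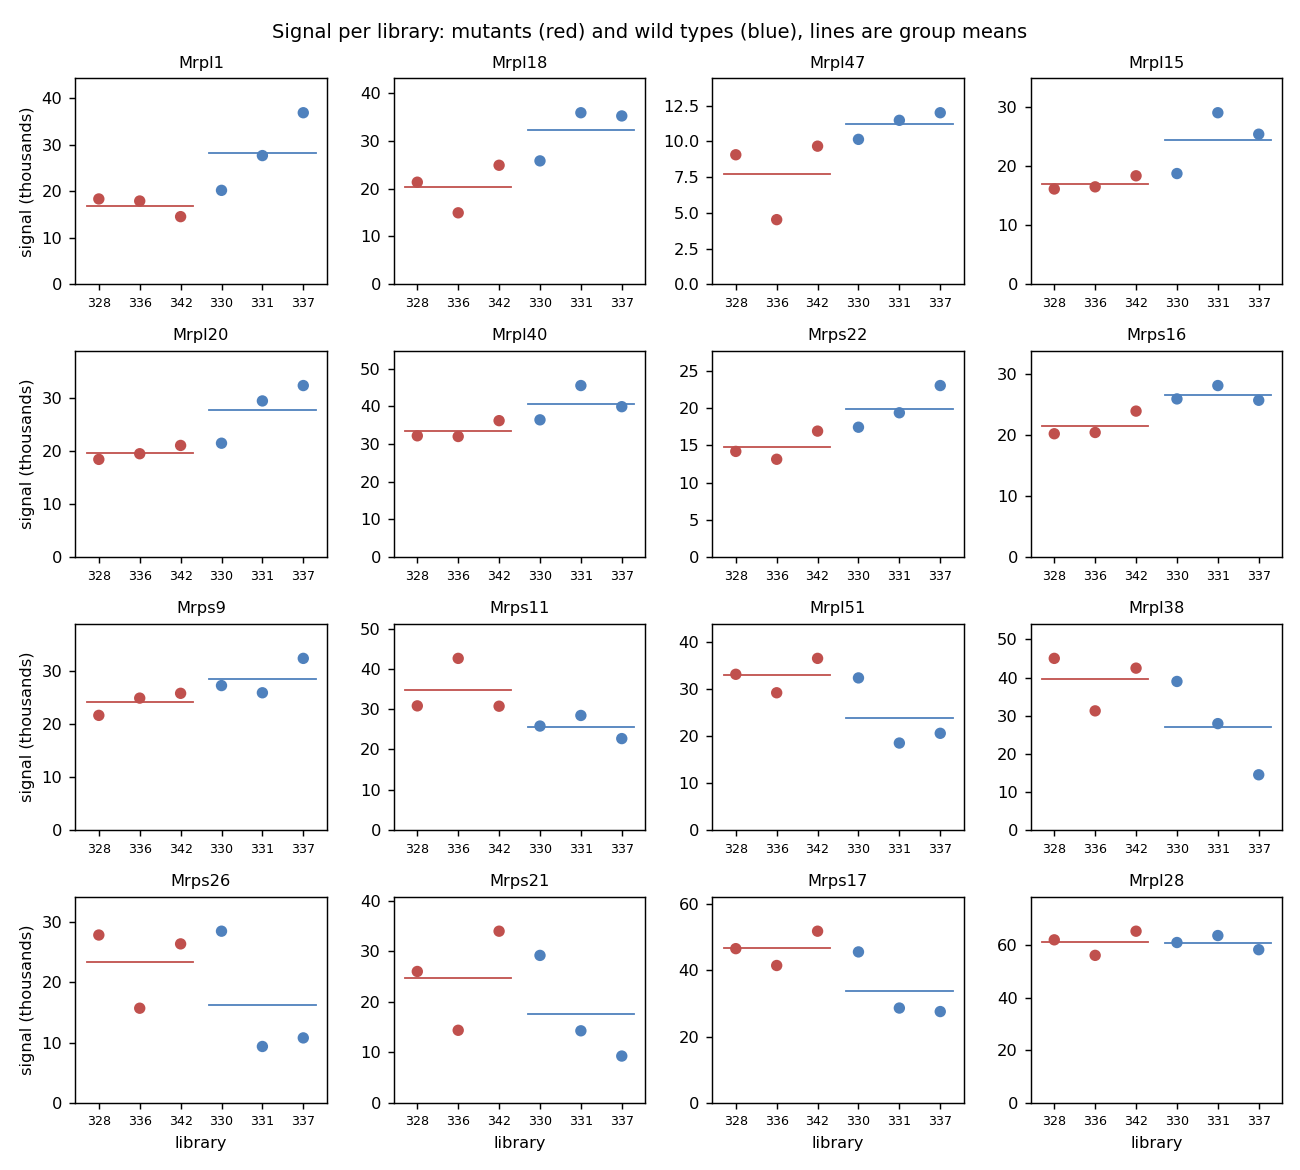
Deposited signal in units of 1000 (y axis, from 0) in each library (x axis) for 16 members; red points are mutants, blue points are wild types and lines are group means. The first 10 genes are those whose groups do not overlap, followed by members with higher mutant means and by Mrpl28, whose means were 61060 and 60886.

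The order of libraries in these genes recurs over the table. Wild types 331 and 337 lay both above the other 4 libraries for 9 large and 2 small subunit genes, and both below them for 5 and 6. That is 29.8% of the large and 28.6% of the small subunit, against 51.3% of all genes. When wild type 330 was left out, 10 of 75 members passed the threshold, or 13.3%, where 26.7% of all genes did. The 4 lower were Mrpl1, Mrpl15, Mrpl18 and Mrpl20, and the 6 higher were Mrpl38, Mrpl51, Mrps17, Mrps21, Mrps26 and Mrps28. Array weights, which let noisy libraries count less, called 12 members where they called 30.2% of all genes, and the coarse class alone called 3 where it called 6.08%. Without any other single library 0 members passed in limma, and the part of the library differences in these calls was not tested.

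Levels between genes were compared per kilobase of transcript, with lengths from GENCODE. They ran from 2492 signal units per kilobase for Mrpl48 to 57091 for Mrpl28, with a median of 21228. Mrpl28 had a signal of 61932, 56030 and 65219 in the mutants, against 60909, 63564 and 58186 in the wild types. The group means were 61060 ± 4656 and 60886 ± 2689 (SD, n = 3 each), and the 95% interval of the log2 difference was -0.35 to 0.35. Annotated lengths of members ranged from 405 to 7300 nucleotides, and a long annotated 3′ end that kidneys do not use would lower a level per kilobase.

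By signal alone, Mrpl17, Mrpl28, Mrpl12 and Mrpl50 led the large subunit and Mrps7, Mrps23, Mrps17 and Mrps2 the small one. Mrpl12, the stalk protein that contacts translation factors, had 66255, 43133 and 73925 in the mutants, against 71980, 59089 and 34428 in the wild types. Its coarse class libraries were the 3 lowest, and the log2 difference of 0.18 (SE 0.28) was -0.13 without wild type 337 and 0.41 without mutant 336. Mrpl17 had 61591, 35725 and 71562 in the mutants, against 70103, 67051 and 68190 in the wild types, a difference of -0.34 (SE 0.24) that was -0.04 without mutant 336. Only that mutant was low. Mrpl50 (-0.24, SE 0.17), Mrps7 (0.15, SE 0.20), Mrps23 (0.16, SE 0.24) and Mrps2 (0.00, SE 0.18) had overlapping groups. Mrps17, which sits in the body of the subunit, had 46546, 41454 and 51821 in the mutants, against 45560, 28597 and 27535 in the wild types, a difference of 0.49 (SE 0.22, adjusted p in limma = 0.257), and wild type 330 lay among the mutants. The lowest signals belonged to Mrpl21 (0.36, SE 0.49) and Mrpl23 (-0.14, SE 0.35) in the large subunit and Mrps36 and Mrps10 in the small one, and these had some of the widest errors. Without wild type 337 the difference of Mrpl21 was -0.16, and without mutant 336 that of Mrpl23 was 0.10 and that of Mrps36 0.26.

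Symbols and structure do not always match. Mrps30 and Mrps18a are known from structures of mammalian mitoribosomes as large subunit proteins, and Mrps36 as a subunit of the oxoglutarate dehydrogenase complex and not of the ribosome. Their log2 differences were -0.25 (SE 0.20), 0.01 (SE 0.18) and -0.05 (SE 0.38), and each had overlapping groups. With the members sorted by structure, the median was -0.10 over 49 large and 0.11 over 25 small subunit proteins. Of the large subunit, 30 genes with a bacterial homologue had a median of -0.11 and 17 mitochondria-specific ones a median of -0.10. Of the small subunit, 15 genes with a bacterial homologue had a median of 0.05 and 10 mitochondria-specific ones 0.12. In none of these classes did a member pass the adjusted threshold in limma.

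The differences were ordered by the base composition of the transcript. The members had a median GC content of 50.7%, as did all genes, and a median transcript length of 1223 nucleotides against 2921. In the 25 members with the lowest GC content, 39.6% to 48.4%, the median log2 difference was -0.24 and 5 of them were higher in mutants. In the 25 with the highest, 52.6% to 60.6%, it was 0.12 and 20 of them were higher. Across the 75 members GC content and the log2 difference correlated at r = 0.45, and across 11518 annotated genes at 0.63. Genes share their libraries and are not replicates, so no p is given. By library, r between GC content and a member's deviation was 0.42, 0.23 and 0.09 in mutants 328, 336 and 342, against 0.16, -0.33 and -0.31 in wild types 330, 331 and 337. Wild types 331 and 337 thus went against the other 4 libraries. When length and GC content were regressed out of each library, the medians of the lowest, middle and highest group of 25 became -0.03, 0.00 and -0.13, and Mrpl1 moved from -0.70 to -0.33, whereas Mrpl18 (-0.64) and Mrpl20 (-0.49) stayed near their values. Mrpl38 moved from 0.64 to 0.22, Mrps22 from -0.43 to -0.19 and Mrps11 from 0.43 to 0.23, whereas Mrpl51 moved from 0.51 to 0.72 and Mrpl40 from -0.28 to -0.45. No member passed in that fit either.

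**Figure D4:**
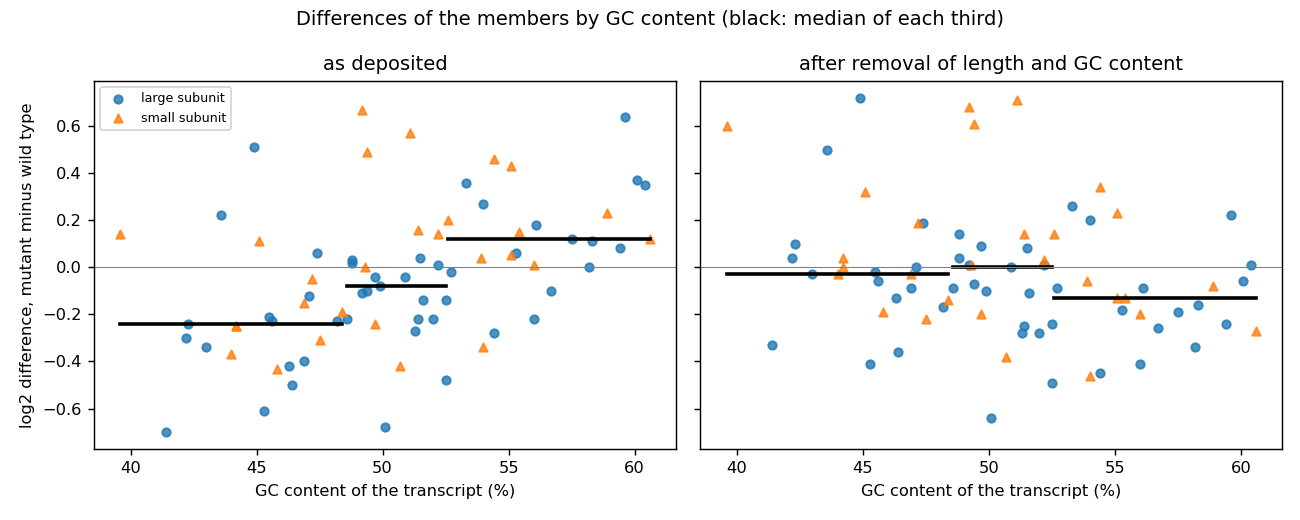
Log2 difference between mutant and wild type (y axis) against GC content of the transcript in percent (x axis) for the 75 members, as deposited (left) and with length and GC content regressed out (right). Black bars are medians of 3 groups of 25 members: they run from -0.24 to 0.12 on the left and from -0.13 to 0.00 on the right.

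Promoters of nuclear genes for mitochondrial proteins are known for sites of the factors NRF1 and GABPA. Promoter sequences from RefSeq (GRCm38.p6) were found for 66 of 75 members, in 72 windows of 250 bases before the gene start. Letters CCGGAAG, the core bound by GABPA and other ETS factors, stood on either strand of 22.2% of these windows and 9.28% of 20150 windows of protein-coding genes. The consensus palindrome of NRF1 stood in 3 of the 72 windows, or 4.17%, against 1.11%. AANATGGCG, the YY1 site, stood in 2 of the 72, or 2.78%, against 1.40%, so both shares rest on very few windows. GGGCGG, the SP1 site, stood in 50.0% against 44.1%. A match is a description of the letters and not of binding.

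The ETS letters occurred at both ends of the range of differences, in Mrpl18 and Mrps22 with lower mutant means and in Mrpl51 and Mrps26 with higher ones. Mrps11, with YY1 but no ETS letters, is shown as the only member with all mutants above all wild types. Each line is 250 bases ending just before the RefSeq gene start, 5′ to 3′ on the gene's strand, with matches to any of the 4 motifs in capitals. GENCODE places some starts elsewhere. By its coordinates Mrpl18 starts at 12916345 and Mrpl51 at 125191801, so that both windows, with their ETS letters, lie inside the gene. The windows of Mrps26 and Mrps11 end a little past the GENCODE starts, 130563742 and 78783119. In Mrps26 the ETS letters stand at that end, past the GENCODE start, and so also lie inside the gene.
Mrpl18 promoter, chr17:12916092-12916341, minus strand: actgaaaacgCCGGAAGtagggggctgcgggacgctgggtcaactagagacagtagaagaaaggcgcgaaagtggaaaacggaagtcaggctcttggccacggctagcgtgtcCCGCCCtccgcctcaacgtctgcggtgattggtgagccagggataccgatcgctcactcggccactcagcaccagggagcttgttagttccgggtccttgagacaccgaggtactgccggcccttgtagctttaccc
Mrps22 promoter, chr9:98601680-98601929, minus strand: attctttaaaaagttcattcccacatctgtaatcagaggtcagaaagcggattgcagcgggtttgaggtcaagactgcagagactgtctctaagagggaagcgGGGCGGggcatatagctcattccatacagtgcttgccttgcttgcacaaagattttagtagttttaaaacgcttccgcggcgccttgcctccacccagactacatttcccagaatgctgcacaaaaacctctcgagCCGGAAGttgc
Mrpl51 promoter, chr6:125191950-125192199, plus strand: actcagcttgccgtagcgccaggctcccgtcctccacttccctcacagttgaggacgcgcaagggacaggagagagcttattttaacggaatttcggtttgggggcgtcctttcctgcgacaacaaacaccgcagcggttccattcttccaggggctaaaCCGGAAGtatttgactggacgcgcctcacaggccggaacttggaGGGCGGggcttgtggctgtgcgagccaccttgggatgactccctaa
Mrps26 promoter, chr2:130563507-130563756, plus strand: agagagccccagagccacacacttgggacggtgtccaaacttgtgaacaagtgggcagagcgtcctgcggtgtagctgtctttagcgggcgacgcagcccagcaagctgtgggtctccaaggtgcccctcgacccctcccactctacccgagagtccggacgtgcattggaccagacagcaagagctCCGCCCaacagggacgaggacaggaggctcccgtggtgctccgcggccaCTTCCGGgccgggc
Mrps11 promoter, chr7:78782881-78783130, plus strand: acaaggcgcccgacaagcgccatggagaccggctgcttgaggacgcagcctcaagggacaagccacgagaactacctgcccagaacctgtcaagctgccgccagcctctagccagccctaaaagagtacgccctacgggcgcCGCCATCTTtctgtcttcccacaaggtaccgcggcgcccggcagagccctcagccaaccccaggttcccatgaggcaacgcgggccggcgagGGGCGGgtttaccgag

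Relative to the RefSeq gene start, the ETS letters begin at -240 in Mrpl18, -11 in Mrps22, -90 in Mrpl51 and -14 in Mrps26. The YY1 letters of Mrps11, read on the opposite strand, begin at -108. All 5 promoters also hold the SP1 letters.

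Other genes of mitochondrial translation, transcription and biogenesis did not pass the test either. On 5 lists, 0 of 73 genes had a limma adjusted p under 0.05. Groups were separated in 16.7% of ribosomal proteins with other names, 13.0% of assembly factors and 0% of translation factors. On the synthetase list it was 10.5% and among regulators 21.4%, against 19.5% of all genes. Mutants were lower in Ptcd3, Gtpbp10, Mterfd2, Tfam, Ppargc1a and Lrpprc. They were higher in Mettl17 (0.45, SE 0.23), Cars2 (0.13, SE 0.21) and Pars2 (0.56, SE 0.30). Of 6 ribosomal proteins with other names, Chchd1 of the small subunit had 13889, 15033 and 19655 in the mutants, against 18582, 44544 and 38035 in the wild types. Wild types 331 and 337 stood far above the rest and mutant 342 lay above wild type 330, with which is -0.98 on the log2 scale (SE 0.30, adjusted p = 0.231 in limma). Ptcd3, another protein of the small subunit, had -0.45 (SE 0.20) with all mutants below all wild types. The highest on this list was Aurkaip1 at 0.34 (SE 0.25), with overlapping groups.

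Among 23 assembly factors Gtpbp10, a GTPase of large subunit maturation, had 6217, 7087 and 7698 in the mutants, against 11385, 12139 and 11407 in the wild types. The groups were well apart, wild type 330 included, and the log2 difference was -0.74 (SE 0.24, adjusted p in limma = 0.231). Mterfd2, which brings an RNA methyltransferase to the large subunit, had -0.51 (SE 0.23) and Rbfa, a small subunit maturation factor, 0.70 (SE 0.33). The list's median was -0.08. In the 11 translation factors the extremes were Mtif2, the initiation factor, at -0.54 (SE 0.25) and Mrrf, the recycling factor, at 0.33 (SE 0.26), with a median of 0.01 and 0 unadjusted p under 0.05 in limma.

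The 19 genes on the list of synthetases that charge mitochondrial tRNAs had a median of 0.13. The list also holds Pet112, Gatc and Qrsl1, subunits of the enzyme that makes glutaminyl-tRNA, which are not synthetases. At its ends stood Qrsl1 (0.59, SE 0.28) and Yars2 (-0.46, SE 0.22), which charges tyrosine tRNA. Of 14 regulators of mitochondrial transcription and biogenesis the median was -0.14, and 3 had an unadjusted limma p under 0.05, all of them lower. That is 21.4% of the list, where 19.0% of all genes had such a p in either direction and 8.51% were lower. Whether the list differs from all genes was not tested. Ppargc1a, the coactivator that drives mitochondrial gene expression, had 18311, 25372 and 16985 in the mutants, against 27174, 31423 and 39920 in the wild types. No mutant reached the lowest wild type, and the log2 difference was -0.70 (SE 0.22, adjusted p in limma = 0.231). Lrpprc, which stabilises mitochondrial messenger RNAs, had 52502, 54458 and 53170 in the mutants, against 63306, 83962 and 76887 in the wild types, a difference of -0.48 (SE 0.17, adjusted p in limma = 0.237), also without overlap. Slirp, its partner, had -0.71 (SE 0.31), and Polrmt, the mitochondrial RNA polymerase, 0.56 (SE 0.26), both with overlapping groups. Nrf1 (0.01, SE 0.17) and Gabpa (-0.30, SE 0.18) did not pass.

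**Figure D5:**
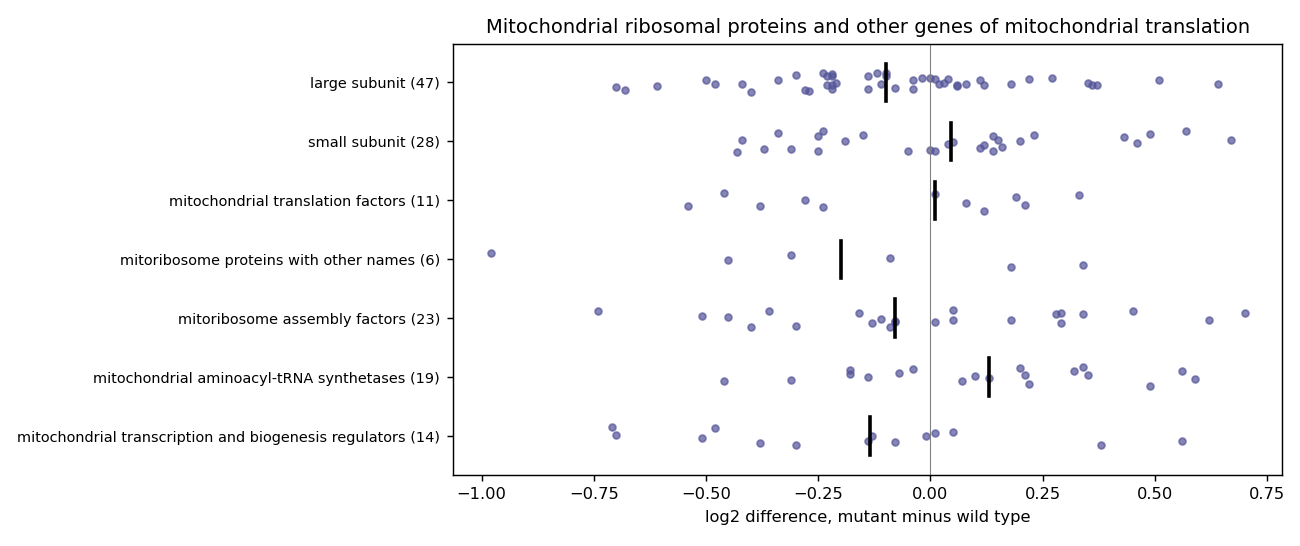
Log2 difference between mutant and wild type (x axis) for the members and for 5 lists of other genes (y axis, gene number in brackets). The lists cover mitochondrial translation, transcription and biogenesis. Points are genes and black bars are medians, which run from -0.20 to 0.13; no gene shown had a limma adjusted p under 0.05.

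Cytoplasmic ribosomal proteins and subunits of oxidative phosphorylation are set beside the members as a description. Of 78 cytoplasmic ribosomal proteins and 79 respiratory and ATP synthase subunits, 0 passed in limma, with medians of -0.15 and -0.06. An unadjusted limma p under 0.05 was found for 14.1% and 12.7% of them, against 8.0% of the members and 19.0% of all genes. Groups were separated in 2.56% and 1.27%, against 13.3% of the members and 19.5% of all genes. In mutant 336 their median deviations were -0.54 and -0.31, against -0.33 in the large and -0.21 in the small mitochondrial subunit. That library held the lowest value for 67.9% of the cytoplasmic ribosomal proteins and 51.9% of the oxidative phosphorylation subunits, against 41.3% of the mitochondrial ribosomal proteins. The difference between these families was not tested.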

How the data were processed

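RNA from 3 mutant and 3 wild type mouse kidneys was poly(A) selected and made into Ion Torrent libraries, per the labels' protocols. The authors deposited a signal per gene and library, already scaled to nearly equal totals, with group means, a ratio of means, log2 values of both and a p-value per gene. Build mm10 and bedtools come from the submitters' processing notes. No source used here gives the aligner, annotation, filter, strand use or scaling. Groups and numbers come from the sample titles.

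All 11578 genes were fitted with limma 3.58.1 (R 4.3.3, variance trend) on log2(signal + 1), with Benjamini-Hochberg adjustment called at 0.05. Requiring 1 or more in 3 libraries removed 0 genes. The fit was tested on simulated data with independent noise per gene and library. These lack the shared library differences described above, so that test cannot speak to them. Members were read from it, subunits apart. Named members are those with separated groups, the highest and lowest in signal, the largest differences either way, and 3 whose structure and symbol disagree. Some named genes lie outside the rules given here and were added after their values were seen. These are Mrpl33, Mrpl46, Mrps28, Ptcd3, Mterfd2, Mettl17, Cars2, Pars2, Tfam, Ppargc1a, Lrpprc, Nrf1, Gabpa, Lars2 and the neighbouring genes. Of each list of mitochondrial genes, the largest difference either way is named. Of the marker lists, those passing or with large separated differences are named, chosen after their values were seen. Values of Six2, Umod and Pdgfrb are set beside them, also chosen after they were seen. Members and lists were chosen with earlier results of these data known. Coordinates, length and GC content (longest coding sequence, then best support, then shortest transcript) come from GENCODE M21 on GRCm38, for 11518 genes. That transcript choice and the fits within a spacing class were made after the data were seen. Alternatives changed the pseudocount, filter, scaling, weights, covariates and libraries.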

Additional observations from a re-analysis of the deposited data

How the results depend on the processing

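No paired analysis was possible because the labels give neither litter nor any pairing of mutants with wild types. Counts of changed members were 0 in the large and 0 in the small subunit and moved in few fits. Array weights (wild type 330 at 0.298, mutant 328 at 5.33) gave 8 and 4, among 3493 changed genes (30.2%). Leaving out 1 library gave 0 to 6 large and 0 to 4 small subunit genes, the upper ends without wild type 330, and 2 to 3095 changed genes against 33 with all libraries. The coarse class alone, with mutant 336 as the lone mutant and assumed to vary like the wild types, gave 3 large subunit genes (Mrpl17, Mrpl18 and Mrpl33), a large subunit median of -0.33 and 704 changed genes. The other 3 libraries alone, with 1 wild type, gave 70 changed genes, and the authors' p-values after adjustment gave 0. Subunit medians lay between -0.19 and 0.01 (large) and between -0.03 and 0.14 (small) when 1 library was left out, with depth class as a covariate at -0.15 and -0.05, and with length and GC content regressed out at -0.09 and -0.02. Members with separated groups numbered 6 and 4, and with 1 library fewer, which makes separation easier, 6 to 15 and 5 to 11. Of 15 members followed over all fits, 1 changed sign, Mrps26, at -0.07 in the 3 libraries outside the coarse class. Separated groups fix the sign of a difference where libraries are only left out or weighted. Apart from the fewer libraries in some fits, the cause was not tested. No count of separated members exists for the fits with a covariate or weights. Filters at 1 and none removed nothing, so they tested nothing.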

Other observations

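Many of these genes sit close to another gene. Of the 75 members, 17 were counted with a protein-coding gene on the opposite strand, head to head with the member. The partner starts within 1000 bases upstream, except that of Mrpl36, which starts inside the member, at a distance of -29 bases. Not in this count are the members Mrpl46 and Mrps11, which lie head to head on chromosome 7 with overlapping starts. Mrpl46 spans 78775236 to 78783531, so that the window shown for Mrps11 lies inside it, and its log2 difference was -0.02 (SE 0.23). Partners include Sars2, which charges mitochondrial serine tRNA and pairs with Mrps12, Ptcd2 with Mrps27, Fau with Mrpl49 and the complex I gene Ndufs6 with Mrpl36, whose exons overlap. Of these partners 16 were in the table and 0 had a limma adjusted p under 0.05. Member and partner had differences of the same sign in 11 of 16 pairs. Sars2 had a log2 difference of 0.49 (SE 0.25), where Mrps12 had 0.23. Apba3, the partner of Mrpl54, had 0.92 (SE 0.35), where Mrpl54 had 0.35. Signs were opposite for Fau (0.42, SE 0.48) with Mrpl49 (-0.10), Hira (0.27, SE 0.20) with Mrpl40 (-0.28) and Cyb5rl (-0.36, SE 0.29) with Mrpl37 (0.06). They also differed for Ndufs6 (0.07, SE 0.43) with Mrpl36 (-0.04) and Zfp661 (0.05, SE 0.31) with Mrps5 (-0.15). How often neighbouring genes share a sign over the whole table is not given here.

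Exons of 15 members overlap a gene on the opposite strand, and these values are uncertain if reads were not counted by strand. Named pseudogenes exist for Mrpl23, Mrpl48 and Mrps36 and could share their reads. The members lie on 17 chromosomes, with 10 on chromosome 11. Lars2, the synthetase that charges mitochondrial leucine tRNA, had 1971670, 1350205 and 628518 in mutants and 970865, 1358526 and 653639 in wild types. In every library this was above the summed signal of the other 18 genes on the synthetase list, and the groups were not separated.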
